A study of Mus musculus with 6 samples.

Results

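The E proteins and their Id inhibitors were followed across the chromatin maps of mouse pre-B cells: Tcf3, Tcf4 and Tcf12, which encode the E proteins E2A, E2-2 and HEB, and Id1, Id2 and Id3, which encode inhibitors of DNA binding. These 6 genes were listed by name out of 22359 protein-coding genes of the GENCODE M1 annotation of the mm9 genome. Every peak was taken that touched the gene body or the 20 kb on either side, and it was placed at the promoter, in an intron or exon, or in a flank. The study mapped H3K27ac, a histone mark of active promoters and enhancers, H3K4me3, a histone mark of active promoters, and the B-lineage transcription factor Pax5 by chromatin immunoprecipitation and sequencing (ChIP-seq). All 3 maps were made from pre-B cells of RAG-/- µ+ mice on the C57BL/6 strain. These mice lack the V(D)J recombinase and carry a rearranged IgM transgene, so that B-cell development proceeds to the pre-B stage and stops there. The mice were 6 to 14 weeks old and of both sexes. Each map was 1 library with 1 peak list, so no replicate spread exists, no test was possible and neighbouring values in any order of the genes cannot be told apart beyond error.

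E proteins are basic helix-loop-helix factors that bind the E-box, a short palindrome-like motif, as dimers with each other or with tissue-restricted partners. In B-cell progenitors, E2A acts together with Ebf1 and Pax5 and is needed for entry into the B lineage. Id proteins keep the dimerization surface and lack the basic region, so that an E protein paired with an Id protein does not bind DNA.

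The H3K27ac list held 69345 peaks with a median width of 428 bp, the Pax5 list held 15445 peaks with a median width of 965 bp, and the H3K4me3 list held bins of 25 bp, which gave 17979 regions of 1025 bp at the median once neighbouring bins were merged. H3K27ac and Pax5 peaks carried a peak-caller score, with a median of 8.52 for H3K27ac and 207 for Pax5. The lowest listed scores were 3.06 for H3K27ac and 87.9 for Pax5. In all 3 lists, absence means that no peak was listed, and weaker signal cannot be seen. The 2 scores are on separate scales and were never compared with each other, and H3K4me3 regions are given by width. Read depth is unknown from these lists. A promoter was the 1000 bp on either side of the start of any protein-coding transcript. The labelled cell type was checked at marker promoters. H3K27ac and Pax5 each lay at 8 of 8 B-lineage markers, against 48.3% and 37.4% of all protein-coding genes. H3K4me3 lay at 6 of 8, without Vpreb1 and Igll1, against 52.6%. All 3 lists also lay at Actb and Gapdh, genes used in all cells, with Pax5 scores of 786 and 222. The highest Pax5 score among the B-lineage markers was 679, at Blnk, so a promoter Pax5 peak was not particular to B-lineage genes. Of 10 markers of other marrow cells, H3K27ac lay at 4, namely Itgam, Csf1r, Mpo and Hbb-b1, with scores of 8.01 to 33.4. Pax5 lay at 0 of them and H3K4me3 at 2, Itgam and Csf1r. The remaining markers, Cd3e, Cd3d, Ncr1, Elane, Gata1 and Siglech, were in none of the lists. The part of other cells in the peaks below was not tested.

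All 6 genes carried promoter H3K27ac (6 of 6, against 48.3% of all protein-coding genes) and promoter H3K4me3 (6 of 6, against 52.6%). Pax5 lay at the promoters of 5 of 6, against 37.4% of all protein-coding genes, and the exception was Id1. The 5 genes with Pax5 also held all 3 lists at the promoter, against 34.3% of all genes. With 6 genes these shares describe the set and carry no test.

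The windows of the 6 genes together held 77 H3K27ac peaks, 25 H3K4me3 regions and 20 Pax5 peaks. Across all genes, 68.3% of windows held H3K27ac, 65.8% held H3K4me3 and 58.2% held Pax5, and every one of the 6 windows held all 3. The E protein genes held 60 H3K27ac peaks, 14 H3K4me3 regions and 14 Pax5 peaks of these, over longer genes. Of the 77 H3K27ac peaks, 19 lay at the gene's own promoter, 37 in introns, 1 over an exon, 9 in upstream and 9 in downstream flanks, and 2 at promoters of neighbouring genes. All 37 H3K27ac peaks classed as intronic belonged to the E protein genes. A peak within promoter range was classed as promoter even where it lay in an intron. In the compact Id genes this left little room for an intron class, so the split does not compare introns. An Id2 H3K27ac peak of score 8.01, with its midpoint in intron 2, was counted at the promoter. Of the 20 Pax5 peaks, 8 were at own promoters, 5 in introns, 3 upstream, 1 downstream and 3 at neighbouring promoters. The neighbours were Mbd3 and Uqcr11 beside Tcf3 and Cox4i2 beside Id1.

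Peak values were higher at the promoters than away from them. The 19 promoter H3K27ac peaks scored 5.63 to 58.6 with a median of 15.0, and the 56 peaks away from promoters scored 3.18 to 18.9 with a median of 7.40. Over the whole list the same medians were 19.8 and 7.40. Pax5 scored 93.3 to 1205 (median 310.0) at the 8 promoter peaks and 88.4 to 384 (median 181) at the 9 peaks away from promoters, against list medians of 253 and 173. The difference in H3K4me3 was one of width, with a median of 2075 bp over 9 promoter regions and 200 bp over 14 regions away from promoters, against 1350 bp and 375 bp in the list.

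Among the 6 genes, H3K27ac peaks were densest around Tcf3. Per 100 kb of window, Tcf3 held 34.3 H3K27ac peaks, Id1 21.9, Id2 11.8, Id3 7.10, Tcf12 5.53 and Tcf4 5.47, against a median of 3.46 over all protein-coding genes. The Tcf3 value stood at the 98.8th percentile of all genes and the Tcf4 value at the 60.5th. Pax5 peaks per 100 kb were 7.80 at Tcf3, 7.10 at Id3, 4.73 at Id2, 2.43 at Id1, 1.56 at Tcf4 and 0.98 at Tcf12, against a median of 1.17. These densities count peaks at neighbouring promoters, which were 2 of the 5 Pax5 peaks at Tcf3 and the only Pax5 peak at Id1. Without them Tcf3 had 4.68 Pax5 peaks per 100 kb, below Id3 with 7.10 and Id2 with 4.73, and Id1 had 0, while Tcf3 still had the most H3K27ac peaks, 31.2 per 100 kb.

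Best promoter values gave 3 different orders of the genes. Each value is the highest over all coding starts of a gene, which number 9 in Tcf3, 7 in Tcf4, 2 in Tcf12 and 1 in each Id gene. The Tcf3 Pax5 value and the Tcf12 H3K27ac and H3K4me3 values came from internal starts. The first starts had 351, 6.64 and 2075 bp. The highest promoter H3K27ac score was 58.6 at Tcf4, 53.4 at Tcf3, 26.7 at Id3, 20.9 at Id2, 16.2 at Id1 and 13.5 at Tcf12, where the median of all genes with such a peak was 32.1. Tcf4 and Tcf3 lay above that median and the other 4 genes below it. The widest promoter H3K4me3 region was 3850 bp at Tcf3 (98.4th percentile of genes with a region), 3350 bp at Tcf4 (97.1st), 2450 bp at Tcf12 (89.8th), 1925 bp at Id2, 1775 bp at Id3 and 1125 bp at Id1, against a median of 1475 bp. The highest promoter Pax5 score was 1205 at Tcf4 (95.9th percentile), 1042 at Id3 (94.3rd), 655 at Tcf3 (85.1st), 269 at Tcf12 (50.1st) and 93.3 at Id2 (2.1st), against a median of 269. The E protein genes thus held the 3 widest H3K4me3 regions, while in Pax5 an Id gene lay second and another one last of those with a peak.

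**Figure D1:**
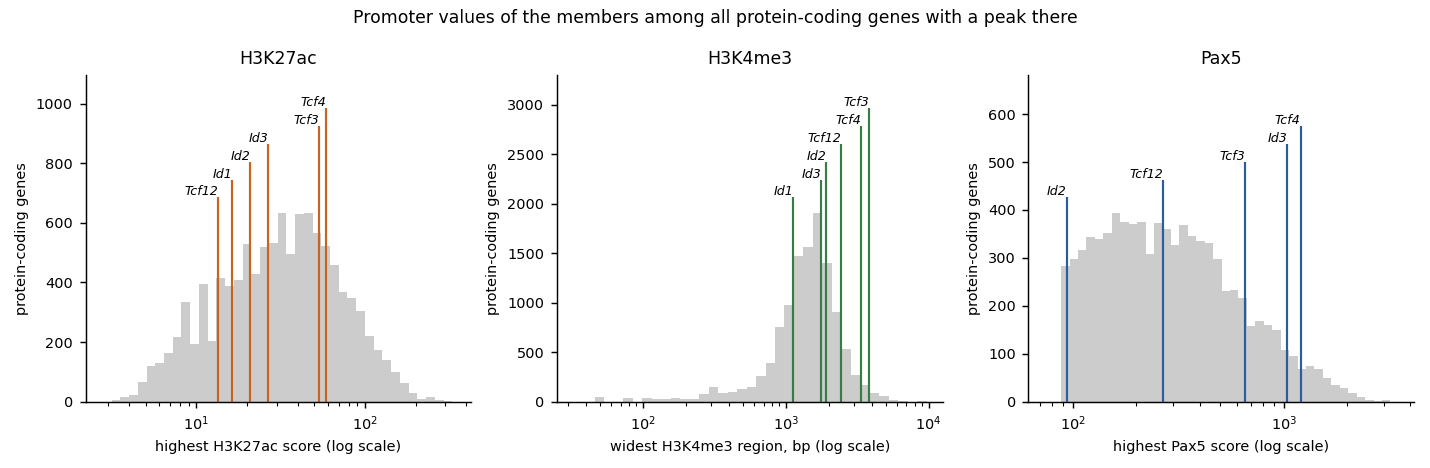
Highest promoter score of H3K27ac and Pax5 and widest promoter H3K4me3 region (x axes, log scale) for all protein-coding genes with such a peak (grey bars, number of genes on the y axis) and for the 6 genes (coloured lines, whose differing heights only separate the names). Tcf3 and Tcf4 lie to the right in all 3 panels, Tcf12 and Id1 lie low in H3K27ac, and Id2 lies at the low end of Pax5, where Id1 has no line.

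Tcf3 encodes E12 and E47, the E2A proteins, which differ in the alternative exons for the DNA-binding domain. The gene lies on the minus strand at chr10:79872259-79896392 (mm9) and spans 24.13 kb. Its 12 coding transcripts start in 3 clusters, at the 5′ end, 2565 bp inside the gene and 11787 bp inside it, the last being the start of a short product of 66 residues. At the first start, H3K27ac formed a pair of peaks, one from 1445 to 56 bp upstream with a score of 53.4 and one from 553 to 1928 bp downstream with a score of 31.0. One H3K4me3 region of 3850 bp, from 885 bp upstream to 2964 bp downstream, covered part of the upstream peak and all of the downstream one. A Pax5 peak of score 351 covered the first start from 804 bp upstream to 712 bp downstream, and its midpoint, 46 bp upstream, fell in the gap between the H3K27ac peaks.

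The higher of the Tcf3 Pax5 peaks, with a score of 655, lay at 3046 to 4195 bp inside the gene, in intron 2 and within promoter range of the internal start. It sat within the widest H3K27ac peak of all 6 windows, which spanned 4098 bp with a score of 30.5. Further into the gene, 8 intronic H3K27ac peaks scored between 3.26 and 11.5, most of them in introns 3 to 7 and without Pax5. Upstream, 6 H3K27ac peaks scored 4.81 to 13.2, and a Pax5 peak of score 88.4, near the bottom of the list at rank 15408, bridged the 2 most distant of these 10916 bp upstream of the start. The strongest Pax5 peak in the window, 1845 at rank 80, lay 34.2 kb from the start at the promoter of Mbd3, which encodes a subunit of the NuRD complex, and another of 435 lay at Uqcr11, a respiratory chain gene. Neither was counted at the Tcf3 promoter.

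Sequence is shown for the upstream Tcf3 site because its centre held 3 CAGCTG letters in 300 bases, the most of the 20 Pax5 centres. Both strands were searched for the general E-box, CANNTG. Of its forms, CAGCTG reads alike on both strands, and the form given here as CAGGTG was counted on either strand. The letters GCGTGAC stand for Pax5, and a palindrome named without its letters stands for Ebf1. Matches are in capitals in this and the later sequences, and an E-box may overlap another match. The central 300 bases are printed on the minus strand of mm9, chr10:79907158-79907457.
Tcf3 upstream Pax5 peak: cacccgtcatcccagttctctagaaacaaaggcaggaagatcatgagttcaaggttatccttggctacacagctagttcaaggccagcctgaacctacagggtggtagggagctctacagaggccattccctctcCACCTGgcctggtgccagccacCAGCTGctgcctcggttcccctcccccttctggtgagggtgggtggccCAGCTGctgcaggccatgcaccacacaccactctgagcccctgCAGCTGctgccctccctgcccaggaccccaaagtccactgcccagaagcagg

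Tcf4 encodes E2-2, the E protein best known for plasmacytoid dendritic cells, and is also expressed in B-lineage cells. It is the longest of the 6 genes, at chr18:69503800-69847621 on the plus strand (343.82 kb), with 7 coding transcripts. Starts form 3 clusters, at the 5′ end, 1575 bp inside and 249271 bp inside the gene, and the longest products of the first and last cluster have 692 and 511 residues. At the first start, H3K27ac of score 58.6 spanned 254 bp upstream to 183 bp downstream, H3K4me3 spanned 268 bp upstream to 3081 bp downstream, and Pax5 of score 1205, rank 419 of the list, spanned 361 bp upstream to 527 bp downstream. The 3 lists thus coincided over the first start itself, unlike the gap seen at Tcf3.

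The internal start of Tcf4, 249271 bp into the gene, formed a second promoter-like unit. There were 3 H3K27ac peaks of scores 17.8, 15.0 and 31.6, an H3K4me3 region of 3125 bp and a Pax5 peak of score 129. Its H3K4me3 region was close in width to the 3350 bp at the first start, while the Pax5 score was 1205 at the first and 129 at the internal start. Both transcripts from the internal start share coding exons with the longest form, 11 and 10 of their 12.

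Pax5 peaks inside the Tcf4 gene differed in the marks around them. Those 40493 bp and 313919 bp from the start, with scores of 255 and 103, overlapped neither H3K27ac nor H3K4me3. The peak 155134 bp from the start, in intron 5 with a score of 384, overlapped H3K27ac peaks of 18.9 and 10.6, with its midpoint in the gap between them. The one 318637 bp from the start, in intron 15 with a score of 259, overlapped H3K27ac peaks of 8.95 and 4.67. Its midpoint lay outside both. Both flanks of Tcf4 were empty in all 3 lists, so its 21 H3K27ac peaks were 7 at starts and 14 in introns. The intronic H3K4me3 regions of 825 bp and 200 bp, 226.8 and 232.4 kb from the start, each overlapped an H3K27ac peak, and one of 75 bp at 21.3 kb did not.

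Tcf12 encodes HEB, which pairs with E2A in lymphoid progenitors. It lies at chr9:71692059-71959626 on the minus strand (267.57 kb), with starts at the 5′ end, for the longest form of 706 residues, and 215736 bp inside the gene, for a form of 536 residues that shares 12 of its 13 coding exons with it. The first start had little H3K27ac, a single peak of 226 bp and score 6.64 placed 657 to 432 bp upstream. H3K4me3 of 2075 bp and Pax5 of score 269 covered it. The internal start held a higher H3K27ac score, 13.5, a wider H3K4me3 region, 2450 bp, and a Pax5 peak of 202. H3K27ac and H3K4me3 were thus larger at the internal start and the Pax5 score larger at the first, and none of these differences has a replicate check.

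The remaining Tcf12 peaks lay in introns, and both flanks were empty, as at Tcf4. Of 15 intronic H3K27ac peaks, scores ran from 3.81 to 11.4, and 4 lay 218.1 to 223.4 kb from the start, just past the internal start. Another run sat in intron 5, where H3K27ac peaks of 7.40 and 10.6 overlapped H3K4me3 regions of 200 and 350 bp, 160.7 and 160.2 kb from the start. The single intronic Pax5 peak, of score 150.8 and 118018 bp from the start, overlapped neither histone mark, while an H3K27ac peak of score 5.63 lay 117430 bp from the start. The internal start is shown because the centre of its Pax5 peak, inside H3K27ac and H3K4me3, lies directly before an internal start. The 300 bases read along the minus strand at chr9:71743895-71744194 of mm9, ending 5 bases before the start, and hold 1 E-box and none of the other letters.
Tcf12 internal start: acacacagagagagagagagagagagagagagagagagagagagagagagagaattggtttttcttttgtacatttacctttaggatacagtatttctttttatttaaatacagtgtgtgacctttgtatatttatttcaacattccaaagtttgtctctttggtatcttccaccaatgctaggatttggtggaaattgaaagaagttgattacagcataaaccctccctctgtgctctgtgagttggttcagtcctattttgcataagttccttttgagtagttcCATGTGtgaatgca

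**Figure D2:**
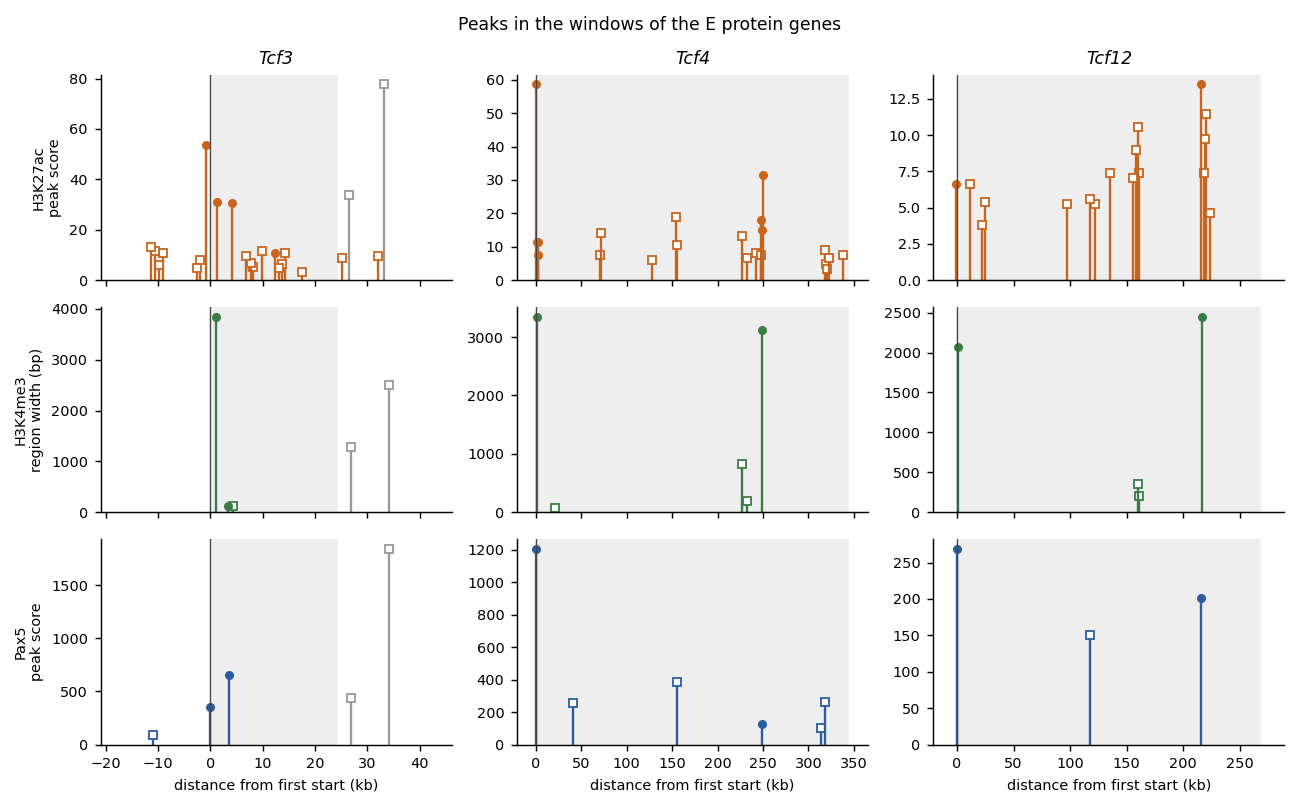
H3K27ac and Pax5 scores and H3K4me3 region widths (y axes) by distance in kb from the first start (x axis, read in the direction of transcription) for Tcf3, Tcf4 and Tcf12; grey shading marks the gene body, filled circles peaks at the gene's own promoters, open squares peaks elsewhere and grey symbols peaks at another gene's promoter, and scales differ between genes. Tcf3 has H3K27ac peaks in groups inside the gene and on both sides of it. Tcf4 and Tcf12 have peaks at the first start, at the internal start 249271 and 215736 bp on, and elsewhere in introns, with empty flanks.

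Id1 was the gene without a listed Pax5 peak at its promoter. It lies at chr2:152561987-152563146 on the plus strand (1.16 kb). H3K4me3 covered the start from 38 bp upstream to 1086 bp downstream, and H3K27ac lay inside the gene, with a score of 5.63 at 252 to 454 bp and 16.2 at 537 to 1006 bp. A run of 6 further H3K27ac peaks followed downstream, with midpoints from 1595 to 5849 bp past the start and scores from 3.70 to 15.9, the highest at 5129 bp. Thus Id1 had most of its H3K27ac peaks 3′ of the gene, with none upstream. The single Pax5 peak in its window, of score 301, sat 20549 bp away at a promoter of Cox4i2, which encodes a cytochrome c oxidase subunit. An H3K27ac peak of 7.40 overlapped it without reaching that promoter.

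Id2 is best known for innate lymphoid and NK cells, where it restrains E proteins. It lies at chr12:25778666-25780957 on the minus strand (2.29 kb). At the start, 3 H3K27ac peaks scored 14.1, 20.9 and 8.01, an H3K4me3 region ran from 703 bp upstream to 1221 bp downstream, and Pax5 ran from 731 bp upstream to 312 bp downstream. That Pax5 peak had the lowest score of all 8 promoter peaks, 93.3, at rank 14798 of 15445. A higher one, 270 at rank 5884, lay 2656 bp upstream, over H3K27ac peaks of 14.1 and 6.03 and H3K4me3 regions of 425 and 150 bp. The upstream flank went on with H3K4me3 regions of 75 bp and 700 bp, 3566 and 4704 bp from the start, neither of which overlapped H3K27ac. All Id2 peaks away from its promoter thus lay upstream, in each of the 3 lists.

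Id3 is induced by antigen-receptor signals in lymphocytes. It lies at chr4:135699412-135701670 on the plus strand (2.26 kb). Here the peaks lay on the gene rather than before it. Pax5 of score 1042, rank 591, ran from 14 to 1724 bp downstream of the start, H3K4me3 from 124 to 1898 bp, and H3K27ac of 26.7 from 451 to 1253 bp with a second peak of 15.1 over the last part of the gene. In the 250 bp before the start, all 3 lists were empty. The whole Pax5 peak held 11 E-boxes in 1711 bp, 3 of them CAGCTG and 4 CAGGTG, which is 6.43 per kb against a list median of 4.65.

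The other Pax5 peaks of Id3 lacked H3K27ac. The one 15550 bp upstream, with a score of 181, overlapped neither mark, and the one 4565 bp past the start, with a score of 147, covered H3K4me3 regions of 125 and 450 bp. One H3K27ac peak of score 3.18 lay 19742 bp upstream, and no other H3K27ac was found outside the gene.

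The centres of the upstream Pax5 peaks of Id2 and Id3 are shown because they carried Pax5 (Id2) or Ebf1 (Id3) letters beside E-boxes. The Tcf4 centre 313919 bp from the start, not shown, also held the Pax5 letters and an E-box. In the Id2 centre (minus strand, chr12:25783463-25783762 of mm9) the capitals GTCACGC are the Pax5 letters read on the other strand and the rest are 4 E-boxes. The Id3 centre (plus strand, chr4:135683712-135684011) held 1 match to the Ebf1 motif, the only one among the 20 centres, and 1 E-box.
Id2 upstream Pax5 peak: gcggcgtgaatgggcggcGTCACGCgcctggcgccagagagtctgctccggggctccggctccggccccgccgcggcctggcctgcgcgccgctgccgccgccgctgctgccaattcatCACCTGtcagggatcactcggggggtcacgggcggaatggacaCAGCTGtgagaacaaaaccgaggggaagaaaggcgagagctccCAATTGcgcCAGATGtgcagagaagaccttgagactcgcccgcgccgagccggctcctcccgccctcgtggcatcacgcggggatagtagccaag
Id3 upstream Pax5 peak: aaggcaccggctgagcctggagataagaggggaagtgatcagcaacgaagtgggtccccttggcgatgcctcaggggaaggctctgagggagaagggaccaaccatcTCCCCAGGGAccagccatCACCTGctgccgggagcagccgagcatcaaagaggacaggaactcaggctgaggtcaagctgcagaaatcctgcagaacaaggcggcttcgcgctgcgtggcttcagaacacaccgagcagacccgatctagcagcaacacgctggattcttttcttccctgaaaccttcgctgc

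The 250 bases before the starts of the Id genes are given for comparison, since their lists differed there: at Id1 H3K4me3 alone reached into this stretch, at Id2 all 3 lists did, and at Id3 none. They lie at chr2:152561737-152561986 on the plus strand, chr12:25780958-25781207 on the minus strand and chr4:135699162-135699411 on the plus strand of mm9. Only the Id2 stretch held any of the letters, a CAGCTG. Of the 250 bp before the first starts of all 6 genes, 3 held an E-box (63.3% of all protein-coding genes), 2 held CAGCTG (11.7%), at Tcf12 and Id2, 1 held GCGTGAC (2.2%), at Tcf4, 0 held CAGGTG (16.9%) and 0 held the Ebf1 motif (0.8%).
Id1 before the start: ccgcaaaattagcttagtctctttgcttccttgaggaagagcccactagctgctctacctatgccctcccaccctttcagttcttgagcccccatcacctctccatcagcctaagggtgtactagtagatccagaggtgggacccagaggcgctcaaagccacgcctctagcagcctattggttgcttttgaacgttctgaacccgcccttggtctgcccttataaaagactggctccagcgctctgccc
Id2 before the start: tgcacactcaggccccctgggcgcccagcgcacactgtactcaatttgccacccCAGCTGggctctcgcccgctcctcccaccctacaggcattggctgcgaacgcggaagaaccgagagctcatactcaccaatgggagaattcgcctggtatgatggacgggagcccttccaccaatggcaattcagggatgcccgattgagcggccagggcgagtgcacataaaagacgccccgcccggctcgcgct
Id3 before the start: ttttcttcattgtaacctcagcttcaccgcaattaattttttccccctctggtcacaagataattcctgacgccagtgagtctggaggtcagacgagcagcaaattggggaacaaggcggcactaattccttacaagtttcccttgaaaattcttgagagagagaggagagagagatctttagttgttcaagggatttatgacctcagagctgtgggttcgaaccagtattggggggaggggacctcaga

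**Figure D3:**
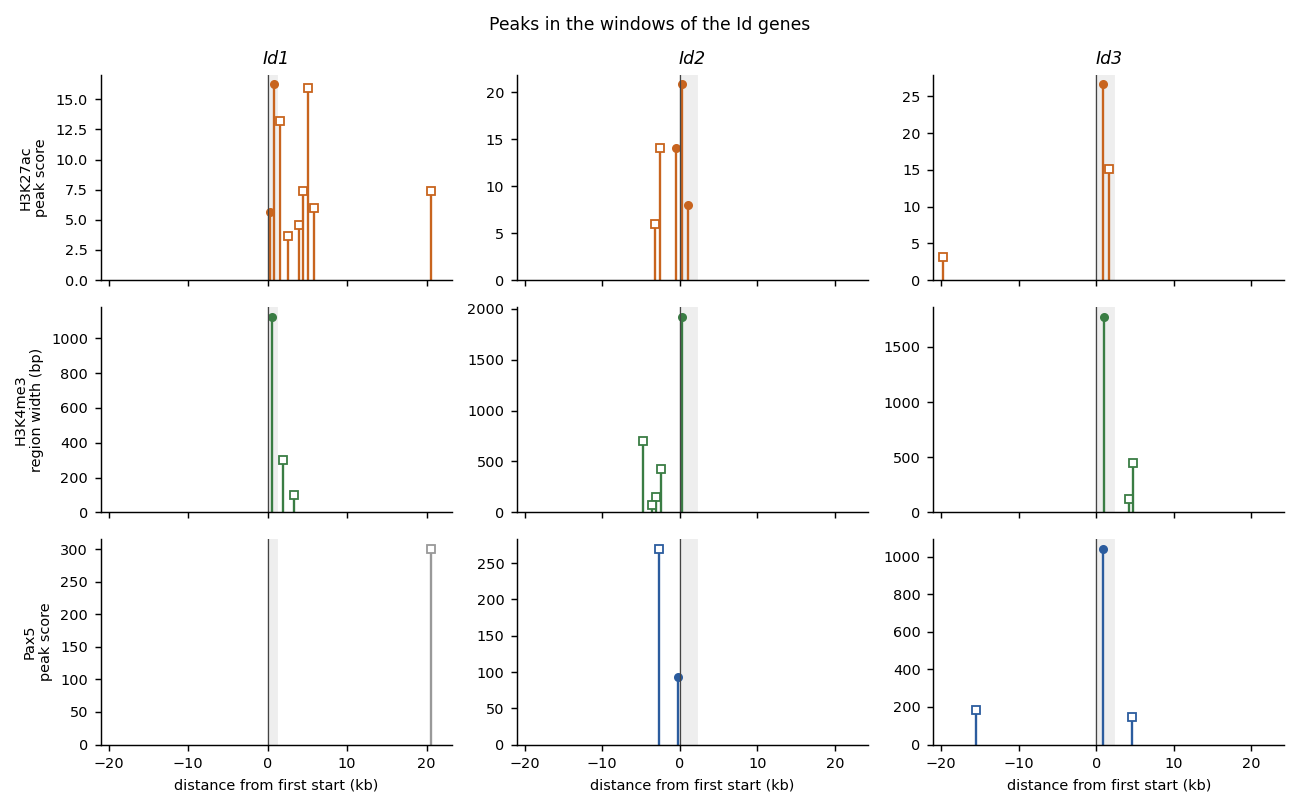
H3K27ac and Pax5 scores and H3K4me3 region widths (y axes) by distance in kb from the start (x axis, in the direction of transcription) for Id1, Id2 and Id3, with symbols and shading as for the E protein genes and scales that differ between genes. Id1 peaks run downstream, Id2 peaks run upstream, and the tallest Pax5 peak of Id3, with a score of 1042, lies on the gene.

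**Figure D4:**
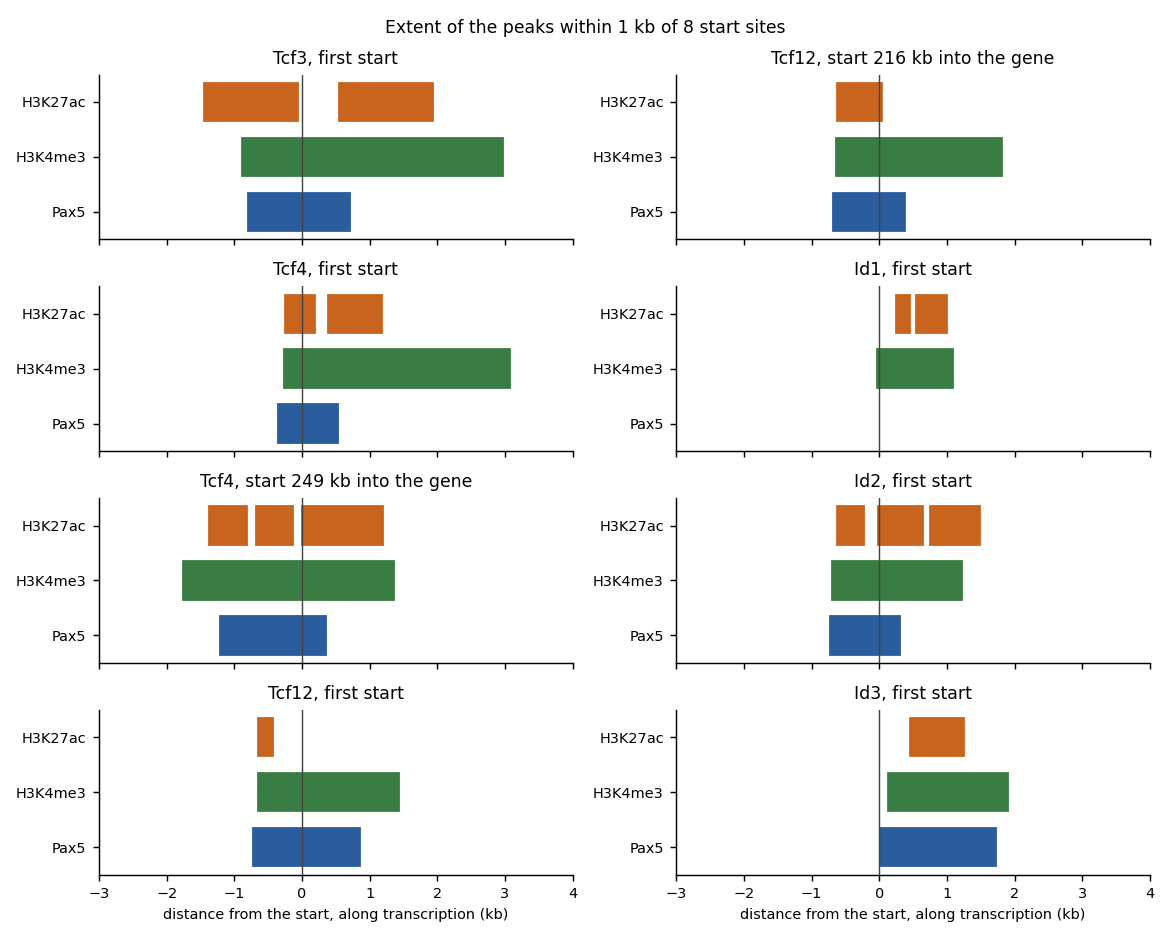
Extent of each peak around 8 start sites of the 6 genes (x axis, kb from that start along transcription; bars run from the first to the last base of the peak, one row per list). The Pax5 bar covers the first start of Tcf3, Tcf4, Tcf12 and Id2 and the distant internal starts of Tcf4 and Tcf12, begins 14 bp past it at Id3 and is missing at Id1.

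Pax5 peaks in the 6 windows overlapped the histone marks about as often as Pax5 peaks elsewhere. Of the 20, 15 overlapped H3K27ac (75%, against 79.3% of the list) and 12 overlapped H3K4me3 (60%, against 61%). The midpoint fell inside an H3K27ac peak in 8 (47.5% of the list), between peaks in 4 (19%) and beside one in 3 (12.8%), and 5 had no H3K27ac (20.7%). The 5 without H3K27ac were 2 in Tcf4, 1 in Tcf12 and 2 at Id3, all away from the starts and with scores of 103 to 255. Of the 25 H3K4me3 regions, 18 overlapped H3K27ac (72%, against 79.7%), and the 7 that did not were 75 to 700 bp wide. Those 7 were 1 in Tcf4, 2 at Id1, 2 at Id2 and 2 at Id3.

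E-boxes were found in the central 300 bp of 17 of the 20 Pax5 peaks, against 73.5% of the Pax5 list. CAGCTG was in 7 (24.4% of the list), CAGGTG in 6 (24.3%), GCGTGAC in 3 (5.71%) and the Ebf1 motif in 1 (1.7%). The GCGTGAC matches were at the first start of Tcf4, at its peak 313919 bp inside, and upstream of Id2. Over whole peaks, the densest in E-boxes were the Cox4i2 peak in the Id1 window with 12.8 per kb, the Tcf4 peak 155134 bp inside with 9.71, and the Id2 upstream peak with 9.20. The 3 centres without an E-box were the stronger Tcf3 peak in intron 2 and the first starts of Tcf4 and Tcf12, all of them promoter peaks of E protein genes. A match to these letters describes the sequence and is not a measurement of binding by an E protein.

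Other genes of the pathway were taken from lists grouped by role. Of 20 partners that dimerize with E proteins or belong to the Id family in other tissues, such as the myogenic, neurogenic and haematopoietic basic helix-loop-helix factors, 4 had promoter H3K27ac, 5 H3K4me3 and 2 Pax5, and 14 were in none of the lists. The exceptions with Pax5 were Bhlha15, a secretory cell factor, with 616 and Lyl1, a haematopoietic factor, with 227. Lyl1 also led in H3K27ac with 73.5, followed by Tal1 with 15.9. The widest H3K4me3 region was 1925 bp at Lyl1, 1650 bp at Tal1, 425 bp at Bhlha15, 300 bp at Id4 and 200 bp at Atoh1. All 3 shares lay below those of all protein-coding genes given above, while the 6 genes themselves lay above them.

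Cofactors and the other E-box binders had peaks at most promoters. An H3K4me3 region of any width was counted, while the median over all genes with a promoter region was 1475 bp. Among the cofactors, Runx1t1 had H3K4me3 regions of at most 100 bp and was in neither other list. Of 10 cofactors, 9 had H3K27ac, 10 H3K4me3 and 8 Pax5, led in Pax5 by the ETO-family corepressor genes Cbfa2t3 with 700 and Cbfa2t2 with 526, and in H3K27ac by Cbfa2t3 with 74.9 and the acetyltransferase gene Ep300 with 64.3. Of 12 other E-box binders, 11 had H3K27ac, 11 H3K4me3 and 10 Pax5. The highest Pax5 scores there were 1542 at Snai1, which encodes a repressor, and 945 at Hes6. The highest H3K27ac scores were 151.5 at Hes6 and 74.9 at Max, the Myc partner. At Snai1 the H3K27ac score was 4.99 and the widest H3K4me3 region 300 bp, and at Snai3 that region was 50 bp.

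Genes upstream of Id expression or of E protein and Id turnover, 11 in all, had H3K27ac at 9, H3K4me3 at 11 and Pax5 at 9. Egr3 was counted by an H3K4me3 region of 400 bp and was in neither other list. Fzr1, which encodes an activator of the anaphase-promoting complex, had a Pax5 score of 1924 and an H3K27ac score of 65.3. Usp1, which encodes a deubiquitinase that stabilizes Id proteins, had 606 and 73.0. Of 17 known E2A targets of B-lineage cells, 16 were annotated as protein-coding, with H3K27ac at 16, Pax5 at 15 and H3K4me3 at 13. Their highest Pax5 scores were 837 at Bach2 and 720 at Cxcr4, and their highest H3K27ac scores 167 at Cxcr4 and 101 at Cd79a, which encodes a signalling chain of the B-cell receptor. The remaining target, Gfi1, has the gene type processed transcript in GENCODE M1.

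**Figure D5:**
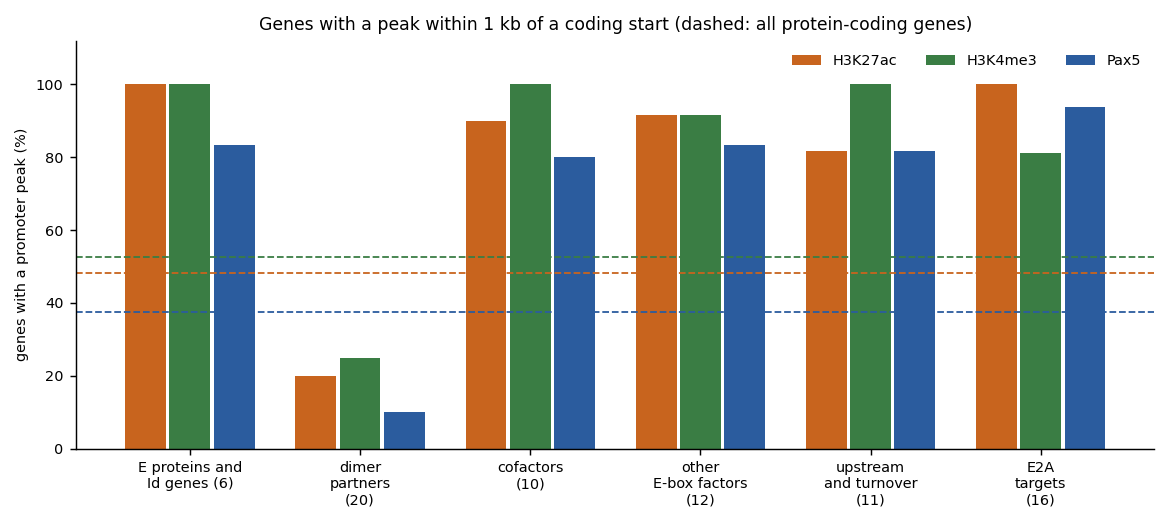
Percentage of genes (y axis) with a promoter peak of H3K27ac, H3K4me3 and Pax5 in the 6 genes, in each role list and over all protein-coding genes (dashed lines). Dimer partners lie lowest, at 20%, 25% and 10%, and the other role lists lie between 80% and 100%, where all protein-coding genes have 48.3%, 52.6% and 37.4%.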

How the data were processed

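H3K27ac, H3K4me3 and Pax5 ChIP-seq were each done once, with 3 input samples that were not used here. The libraries were amplified with 18 PCR cycles and sequenced single-end. The submitters' processing notes name Bowtie 0.12.9, MACS 1.4.2 and mm9, and peak-calling settings for these lists are not given in the sources used here. The authors deposited a peak score for H3K27ac and for Pax5, of unstated scale. The other deposited list, H3K4me3, held bins of 25 bp with no usable value, which were joined across gaps of up to 100 bp.

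Peaks were assigned to GENCODE M1 genes with Python 3.11.15 and numpy 2.4.6, with an overlap of at least 1 bp, a promoter of 1000 bp on either side of a coding start and flanks of 20 kb. Percentiles are among protein-coding genes. Sequences came from the NCBIM37 (mm9) genome. The overlap code was tested on simulated intervals. The 6 genes and the role lists were chosen with earlier results of these data known. In each role list, the genes named as examples are those with the 2 highest Pax5 and the 2 highest H3K27ac promoter scores, and neighbours are named where a peak lay at their promoter. Alternatives were other promoter and flank sizes, all transcripts, midpoints, the higher-scoring 50% of peaks and only touching bins joined. Depth and counting error cannot be had from peak lists.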

Additional observations from a re-analysis of the deposited data

How the results depend on the processing

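No paired analysis was possible because there was a single library for each list. Of 31 alternatives, 26 stayed within 1.5 times the reported count. For promoter counts this measure says little. A wider promoter or all transcripts cannot lower a count of 6 of 6 genes, and loss of a single gene stays within the limit. With the higher-scoring 50% of peaks, the windows held 38 H3K27ac peaks in place of 77 and 12 Pax5 peaks in place of 20, and with that part of both lists 9 Pax5 peaks overlapped H3K27ac in place of 15, as fewer peaks were entered. With the midpoint of the Pax5 peak required inside H3K27ac the count was 8. With only touching bins joined, H3K4me3 regions numbered 38 in place of 25. Among the smaller changes, Pax5 at the Id2 promoter was lost with the higher-scoring 50%, leaving 4 genes, and H3K4me3 at Id3 was lost by midpoint, leaving 5. Leaving out peaks at neighbouring promoters, an alternative chosen after seeing the data, left 75 H3K27ac, 23 H3K4me3 and 17 Pax5 peaks. H3K27ac scores come in steps, so the order of tied peaks is arbitrary.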
